A study of Mus musculus with 4 samples.

Results

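LINE L1 repeats are a family of autonomous retrotransposons of the mouse genome, and the small RNA that matched them was compared in sperm of extra-cross and original-cross males. The members were the features of the repeat class whose name contains _L1_. There were 101 of them among 498 repeat features, 2150 features in the 5 small RNA classes (tRNA, miRNA, piRNA, rRNA and repeats) and 70584 features in all. Each feature is a consensus sequence of a repeat database, named for a subfamily and for the animal group of the consensus, such as L1MdTf_I_L1_Mus. The 27 features whose name begins with L1Md, the mouse subfamilies, were taken as the young set and the other 74 L1 features as the comparison.

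Sperm came from the cauda epididymis, the end of the duct where sperm are stored, of adult C57BL/6 mice. There were 2 mice labelled extra cross to wildtype and 2 labelled original cross, and each male gave 1 small RNA library. By its title the study set sperm prone to silencing of LoxP, the short target of Cre recombinase, against sperm that are not, and the labels used here say neither which cross was prone to it nor which alleles the males carried. The values are RPM, reads scaled by the authors to equal library sizes. The 2 tables, 1 per replicate number, each hold 1 library of each cross, so that fold changes were also read within a table.

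A full-length L1 element carries a promoter in its 5′ part, a first open reading frame for an RNA-binding protein and a second for an endonuclease and reverse transcriptase, and it copies itself through an RNA intermediate. In the mouse the A, Tf and Gf subfamilies hold copies that can still move, while F, Fanc, V, N and Mus are older relatives and Lx is older still. The young set was defined by name alone, so it also holds 6 F features and 8 features of Fanc, V, N and Mus. HAL1 elements lost the second reading frame. In male germ cells L1 is held down by DNA methylation and by piRNAs, short RNAs bound to PIWI proteins that are in part cut from L1 transcripts themselves. RNA of a size-selected library that matches L1 can therefore be piRNA or another fragment, and the tables analysed here give no read length or strand.

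L1 was a small part of these libraries and rested on few reads. The 101 features made up 0.0762% and 0.111% of the summed RPM of the 5 classes in the extra-cross libraries, against 0.162% and 0.141% in the original-cross libraries. The commonest value among miRNAs was read as the worth of 1 read, 0.642 and 0.238 RPM in extra-cross replicates 1 and 2 and 1.58 and 0.561 RPM in original-cross replicates 1 and 2. On that scale the L1 sum stood for 795 and 2341 reads in extra-cross sperm and for 569 and 1255 reads in the original-cross libraries. Only 4.7% to 14.3% of the L1 values up to 20 reads in a library were whole within 0.02 reads, as when a read is divided among the features it matches. Members may therefore share reads and cannot be taken as independent, though the rule for reads with several matches is not given. By its reads original-cross replicate 1 is the least precise library. A level is given per feature and not per length, because feature lengths are not in the tables.

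The libraries also held microRNAs listed as markers of other cells, and some of these differed between the crosses, in either direction. All 6 listed microRNAs of smooth muscle and stroma were above 0 in every library, and 5 were lower in the extra cross in both tables. Their sums were 3382 and 5078 RPM for the extra-cross males, against 8547 and 6264 RPM for the original-cross males. All 5 epididymal epithelium microRNAs were detected in every library, and 4 were higher and 0 lower in the extra cross in both tables. Their sums were 10409 and 5315 RPM in the extra cross and 4394 and 2055 RPM in the original cross. All 8 blood microRNAs were detected, at 11186 and 1136 RPM in the extra cross and 6520 and 1229 RPM in the original cross. Of these 2 were lower and 4 higher in both tables. Of 5 spermatogenic microRNAs 4 were measured, at 1813 and 1205 RPM in the extra cross and 1923 and 749 RPM in the original cross, and mir-449c was at 0 in at least 1 library. Whether these microRNAs came from such cells or from the sperm was not tested. The part of these differences in the L1 values was not tested, and fewer cells of a type cannot be told apart from less RNA per cell.

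The summed RPM on L1 was lower in the extra cross in both tables. The sums were 510 and 557 RPM for the extra-cross males, against 899.9 and 704 RPM for the original-cross males. The crosses did not overlap, and the extra cross held 0.567 times the original-cross sum in the replicate 1 table and 0.790 times in the replicate 2 table. With 2 libraries a cross an exact two-sided permutation test cannot go below p = 0.333, so no test of the sum was made. The repeat class as a whole moved differently in the 2 tables, at 0.676 and 1.18 times the original cross. A single 5S RNA repeat, 5S_CPo_Nonautonomous_Cavia, made up 63.1% and 53.9% of the class in the extra-cross libraries and 62.2% and 39.6% in the original-cross libraries. Without it L1 was 17.9% and 22.01% of the class in the extra cross, against 20.8% and 24.96% in the original cross. Those shares overlap between the crosses, though each is lower in the extra cross of its own table.

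**Figure D1:**
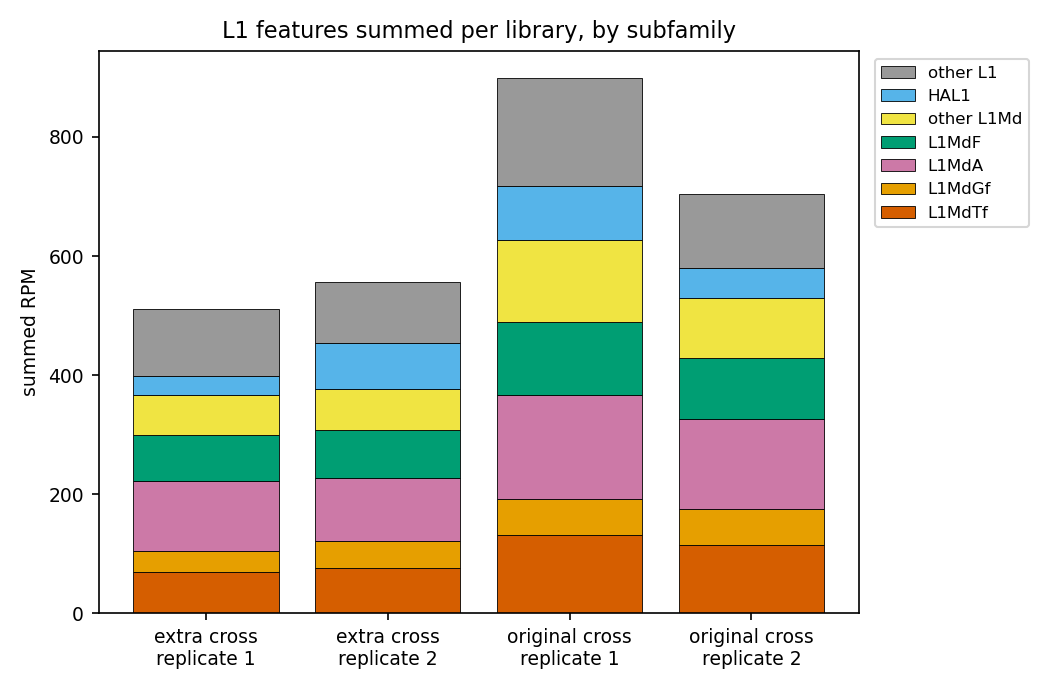
Summed RPM (vertical axis) of the 101 L1 features in each library, extra cross on the left, stacked by subfamily. The extra-cross bars end at 510 and 557 RPM and the original-cross bars at 899.9 and 704 RPM, and HAL1 is the layer that is larger in extra-cross replicate 2 than in original-cross replicate 2.

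Of the 101 features 26 reached a mean of 10 RPM over the 4 libraries and were tested, and they held 81.4% and 84.7% of the L1 sum in the extra cross and 81.4% and 84.5% in the original cross. Of the young set 22 of 27 were tested, and of the others 4 of 74. All 26 had a negative log2 fold change, on the scale of log2(RPM + 1), where 58.4% of all 760 tested small RNA features, 50.7% of those that are not piRNA loci and 87.5% of 64 repeats did. In 24 of the 26 both extra-cross values lay below both original-cross values, against 26.8% of all tested features (14.1% of those that are not piRNA loci), 64.1% of repeats and 44.7% of the 38 repeats that are not L1. These 24 were also the features lower in both tables, a state of 46.3% of all features and 65.8% of the other repeats, and none of the 26 was higher in both, where 19.9% of all features were (4.47% without overlap). These shares count features with equal values in all 4 libraries separately. Taken once, 543 of the 760 were left, with all 26 L1 features, and the median log2 fold change of all was -0.18, against -0.12. The shares were not computed on the 543.

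No L1 feature passed the test. In limma, fitted over all 760 features with cross type as the only term, the adjusted p of the 26 ran from 0.509 to 0.995, and 0 passed of the 26 and 0% of all features at a threshold of 0.05. None of the 26 had an unadjusted p below 0.05, against 14.7% of all features. Of the 112 features below it 104 were piRNA loci. Outside those loci 8 of 639 features were below it, among them 2 of the 38 other repeats. Of the 26, L1MdFanc_II_L1_Mus and L1_Mus1_3end_L1_Mus reached the minimum only through the original cross, where they were higher, so the counts above are a description. With a mean of 10 RPM required in each cross the median of the 24 left was -0.49, against -0.099 over the 686 small RNA features left. The standard errors of the 26 fold changes ran from 0.40 to 0.65 on the log2 scale. Limma draws them toward a variance trend over all 760 features, so single L1 features can vary less between mice. The median log2 fold change of the 26 was -0.50, and it was -0.62 in the replicate 1 table and -0.39 in the replicate 2 table. It was -0.12 over all 760 features, -0.44 over the 38 other repeats and -1.82 over the 121 piRNA loci.

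**Figure D2:**
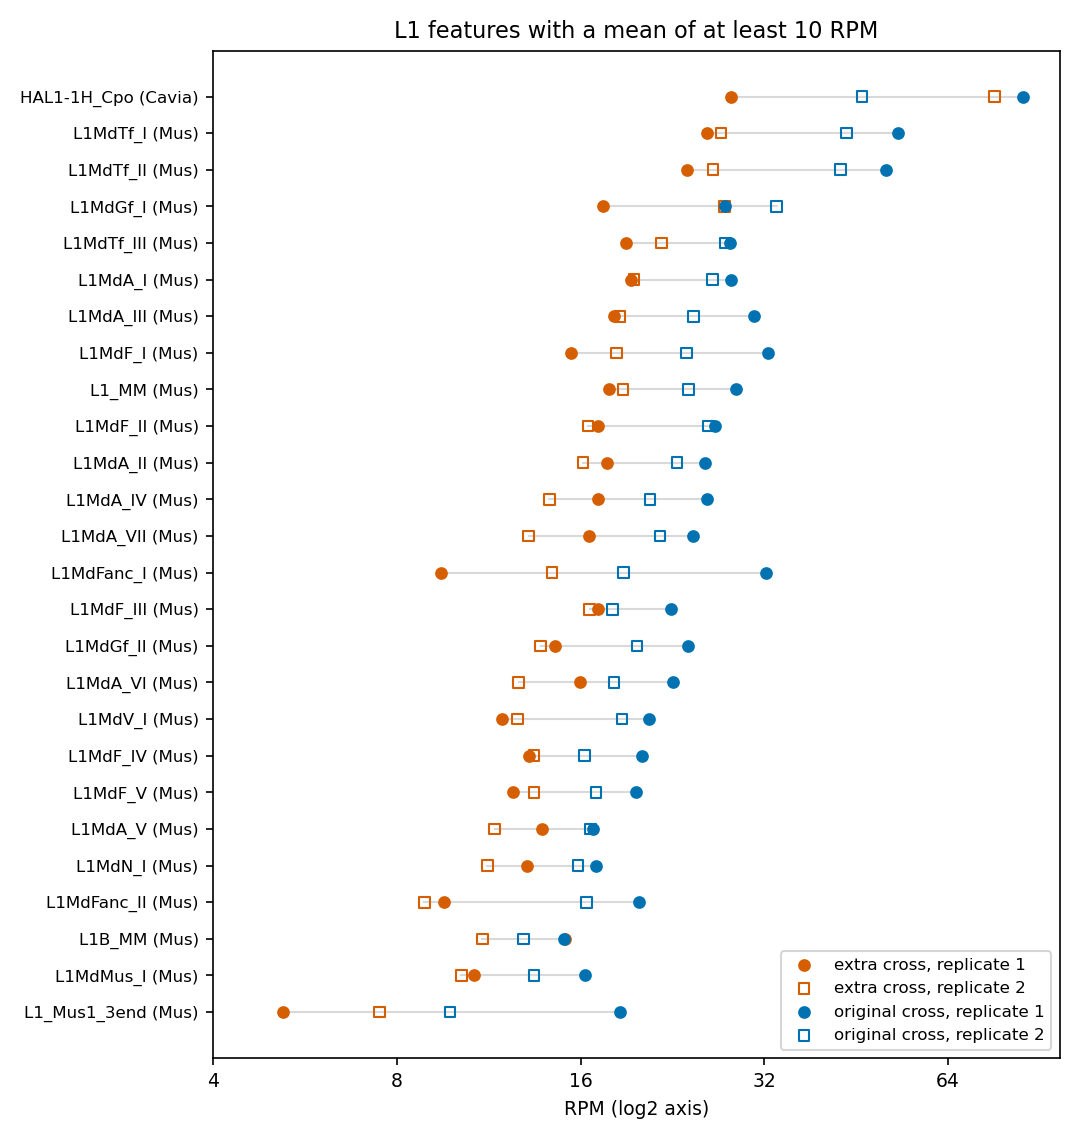
RPM (log2 axis) of the 26 tested L1 features in each library, with extra-cross libraries in orange and original-cross libraries in blue, replicate 1 filled and replicate 2 open; the grey line spans the 4 values. In 24 rows both orange marks lie left of both blue marks, and HAL1-1H_Cpo and L1B_MM are the rows where they do not.

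The Tf subfamily, which has many movable copies, held the 2 young features with the highest mean RPM over the 4 libraries. In extra-cross replicate 2 alone L1MdGf_I_L1_Mus, given further on, was higher than they were. L1MdTf_I_L1_Mus had 25.7 and 27.2 RPM in the extra-cross libraries, against 53.0 and 43.6 RPM in the original-cross libraries. These values stand for 40.1 and 114 reads in the extra cross and 33.6 and 77.8 reads in the original cross. L1MdTf_II_L1_Mus was nearly the same, with 23.9 and 26.4 RPM in the extra cross and 50.7 and 42.6 RPM in the original cross. The crosses did not overlap in either feature, with log2 fold changes of -0.84 ± 0.40 and -0.86 ± 0.40 (SE, n = 2 libraries per cross) and limma adjusted p of 0.545 and 0.509. L1MdTf_III_L1_Mus was closer, at 19.0 and 21.7 RPM in the extra cross against 28.1 and 27.7 RPM in the original cross. Its log2 fold change was -0.44 ± 0.40 (SE), about that of the other mouse subfamilies.

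The A subfamily, which also has movable copies, was measured in 7 features and all 7 were lower without overlap. L1MdA_I_L1_Mus had 19.3 and 19.6 RPM in the extra-cross libraries, against 28.2 and 26.3 RPM in the original-cross libraries. L1MdA_III_L1_Mus had 18.2 and 18.6 RPM in the extra cross, against 30.8 and 24.5 RPM in the original cross. The libraries of a cross lay close together in the first, and in the second the original-cross libraries differed from each other by more. Over the 7 features the log2 fold change ran from -0.61 in L1MdA_VII_L1_Mus to -0.37 in L1MdA_V_L1_Mus, with a median of -0.50. L1MdA_II_L1_Mus, L1MdA_IV_L1_Mus and L1MdA_VI_L1_Mus lay between, at -0.50, -0.54 and -0.48. The median was -0.52 in the replicate 1 table and -0.49 in the replicate 2 table. Single features were less even, such as L1MdA_III_L1_Mus at -0.73 and -0.38 and L1MdA_V_L1_Mus at -0.26 and -0.49 in the 2 tables.

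In the Gf subfamily, the remaining group with movable copies, 2 of 3 features were tested. L1MdGf_I_L1_Mus had 17.4 and 27.5 RPM in the extra-cross libraries, against 27.6 and 33.5 RPM in the original-cross libraries, so that extra-cross replicate 2 almost met original-cross replicate 1. L1MdGf_II_L1_Mus had 14.5 and 13.8 RPM in the extra cross, against 24.0 and 19.8 RPM in the original cross. Their log2 fold changes were -0.45 ± 0.45 and -0.59 ± 0.42 (SE). That of L1MdGf_I_L1_Mus was -0.14 without extra-cross replicate 1 and -0.77 without extra-cross replicate 2. The separate feature for the 5′ end of this subfamily, L1Md_Gf_5end_L1_Mus, had 2.98 and 4.43 RPM in the extra cross and 8.98 and 8.01 RPM in the original cross, and was below the minimum.

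The older F subfamily had 5 tested features, again all lower without overlap. L1MdF_I_L1_Mus had 15.4 and 18.3 RPM in the extra-cross libraries, against 32.4 and 23.9 RPM in the original-cross libraries. L1MdF_II_L1_Mus had 17.1 and 16.5 RPM in the extra cross, against 26.5 and 25.9 RPM in the original cross. In L1MdF_III_L1_Mus the crosses nearly met, at 17.1 and 16.6 RPM in the extra cross and 22.5 and 18.1 RPM in the original cross, and its log2 fold change of -0.25 ± 0.42 (SE) was the nearest to 0 in the young set, and it was -0.098 without original-cross replicate 1. L1MdF_IV_L1_Mus and L1MdF_V_L1_Mus were at -0.42 and -0.47. The 5′ end feature L1Md_F_5end_L1_Mus stood for under 2 reads in each original-cross library. It had 1.43 and 2.07 RPM in the extra cross and 1.70 and 0.913 RPM in the original cross, with opposite directions in the tables.

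The 5 remaining tested L1Md features had a median log2 fold change of -0.64. L1MdFanc_I_L1_Mus, of an older subfamily, had 9.45 and 14.4 RPM in the extra-cross libraries, against 32.2 and 18.8 RPM in the original-cross libraries. Its log2 fold change of -1.02 ± 0.51 (SE) was the lowest of the 26 and came mainly from the replicate 1 table, at -1.67 there and -0.37 in the replicate 2 table. L1MdFanc_II_L1_Mus was lower in both, with 9.56 and 8.87 RPM in the extra cross against 19.96 and 16.4 RPM in the original cross (-0.90 ± 0.44, SE), and it reached the minimum only through the original cross. L1MdV_I_L1_Mus, L1MdN_I_L1_Mus and L1MdMus_I_L1_Mus were at -0.64, -0.41 and -0.46.

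Shares within L1 were compared as well, since these do not depend on the library total. Of the L1 sum without HAL1-1H_Cpo_L1_Cavia, described further on, the 3 Tf features made up 14.2% and 15.7% in the extra-cross libraries, against 16.2% and 17.3% in the original-cross libraries. The 6 F features made up 15.9% and 16.7% in the extra cross, against 15.1% and 15.5% in the original cross. The crosses did not overlap in either share, with Tf lower and F higher in the extra cross. With HAL1-1H_Cpo_L1_Cavia kept in the sum, Tf still did not overlap, at 13.5% and 13.5% in the extra cross against 14.7% and 16.2% in the original cross. F then overlapped, at 15.004% and 14.4% in the extra cross and 13.7% and 14.5% in the original cross. The 7 A features overlapped, at 24.6% and 22.05% in the extra cross and 21.4% and 22.9% in the original cross, and so did the 3 Gf features, at 7.25% and 9.52% in the extra cross and 7.43% and 9.32% in the original cross. The base of these shares was picked after their values were seen, and they were not tested.

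The ratio of the first Tf feature to the first A feature was read in the same way, a pair picked after its values were seen and so not tested. L1MdTf_I_L1_Mus stood at 1.33 and 1.39 times L1MdA_I_L1_Mus in the extra-cross libraries, against 1.88 and 1.66 times in the original-cross libraries. The ratio of L1MdTf_I_L1_Mus to L1MdTf_III_L1_Mus was 1.35 and 1.25 in the extra cross, against 1.89 and 1.58 in the original cross. In each table the extra-cross library had the lower value of both ratios, without overlap. For L1MdGf_I_L1_Mus over L1MdA_I_L1_Mus the values overlapped, at 0.901 and 1.41 in the extra cross and 0.979 and 1.28 in the original cross.

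Outside the young set only 4 features were tested, and they did not share 1 pattern. HAL1-1H_Cpo_L1_Cavia, a consensus from guinea pig, was the L1 feature with the highest mean RPM and had 28.2 and 76.3 RPM in the extra-cross libraries, against 84.9 and 46.3 RPM in the original-cross libraries. It was lower in the extra cross of the replicate 1 table (log2 fold change -1.56) and higher in that of the replicate 2 table (0.71), and the crosses overlapped. The 5S repeat from guinea pig named above was also lower in the first and higher in the second, at 4886 and 2961 RPM in the extra cross and 7128 and 1846 RPM in the original cross. L1_MM_L1_Mus, a mouse L1 consensus, followed the young set at 17.8 and 18.8 RPM in the extra cross against 28.8 and 24.1 RPM in the original cross. L1B_MM_L1_Mus hardly differed, with 15.1 and 11.0 RPM in the extra cross against 15.1 and 12.9 RPM in the original cross. L1_Mus1_3end_L1_Mus, a 3′ end consensus, had 5.21 and 7.49 RPM in the extra cross against 18.5 and 9.77 RPM in the original cross, with a log2 fold change of -0.998 ± 0.555 (SE), and it reached the minimum only through original-cross replicate 1.

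The young set was then compared with the 4 others. The median log2 fold change was -0.52 over the 22 young features and -0.46 over the 4 others, a difference of -0.056. Without extra-cross replicate 2 the difference was 0.30 and without original-cross replicate 2 it was 0.11, so that its sign rested on single libraries. With no minimum it was -0.43, from -0.56 over all 27 young features and -0.13 over all 74 others, 49 of which had a mean under 1 RPM. The sum of all 27 young features was 367 and 376 RPM in the extra-cross libraries, against 627 and 529 RPM in the original-cross libraries. The sum of the 74 others was 143 and 180 RPM in the extra cross, against 273 and 176 RPM in the original cross. The young sum thus did not overlap between the crosses and the other sum did. Without HAL1-1H_Cpo_L1_Cavia the other features summed to 115 and 104 RPM in the extra cross, against 188 and 129 RPM in the original cross, with no overlap. The young to other ratio without it was 3.20 and 3.62 in the extra cross and 3.33 and 4.09 in the original cross, which overlap.

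The 75 features below the minimum had sums of 95.04 and 85.004 RPM for the extra-cross males, against 168 and 109 RPM for the original-cross males. Of these, 28 were lower in the extra cross in both tables and 16 were higher in both, where 30.9% of all small RNA features under 10 RPM were lower in both. The highest of them by mean was L1MdV_III_L1_Mus, with 5.59 and 4.24 RPM in the extra cross against 16.6 and 4.83 RPM in the original cross. L1Lx_I_L1_Mus had 5.71 and 7.12 RPM in the extra cross against 9.65 and 7.74 RPM in the original cross. L1Lx_III_L1_Mus had 5.76 and 4.74 RPM in the extra cross against 13.0 and 6.26 RPM in the original cross. L1Lx_IV_L1_Mus stood at 4.91 and 4.75 RPM in the extra cross and at 9.89 and 5.58 RPM in the original cross. L1_Mus2_3end_L1_Mus had 5.67 and 4.47 RPM in the extra cross against 9.51 and 8.43 RPM in the original cross. The crosses overlapped in L1MdV_III_L1_Mus and not in the other four named here, and original-cross replicate 1 stood highest in each. Over all 101 features 52 were lower and 16 higher in both tables, where 36.3% of the 2150 small RNA features were lower in both. Of the 75, 49 had a mean under 1 RPM and 13 were listed in only 1 of the 2 tables, too few reads to give a direction. Among the 26 that averaged 1 RPM or more, 16 were lower and 6 higher in both tables. The share of all small RNA features at that level was not computed, so this count has no comparison.

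**Figure D3:**
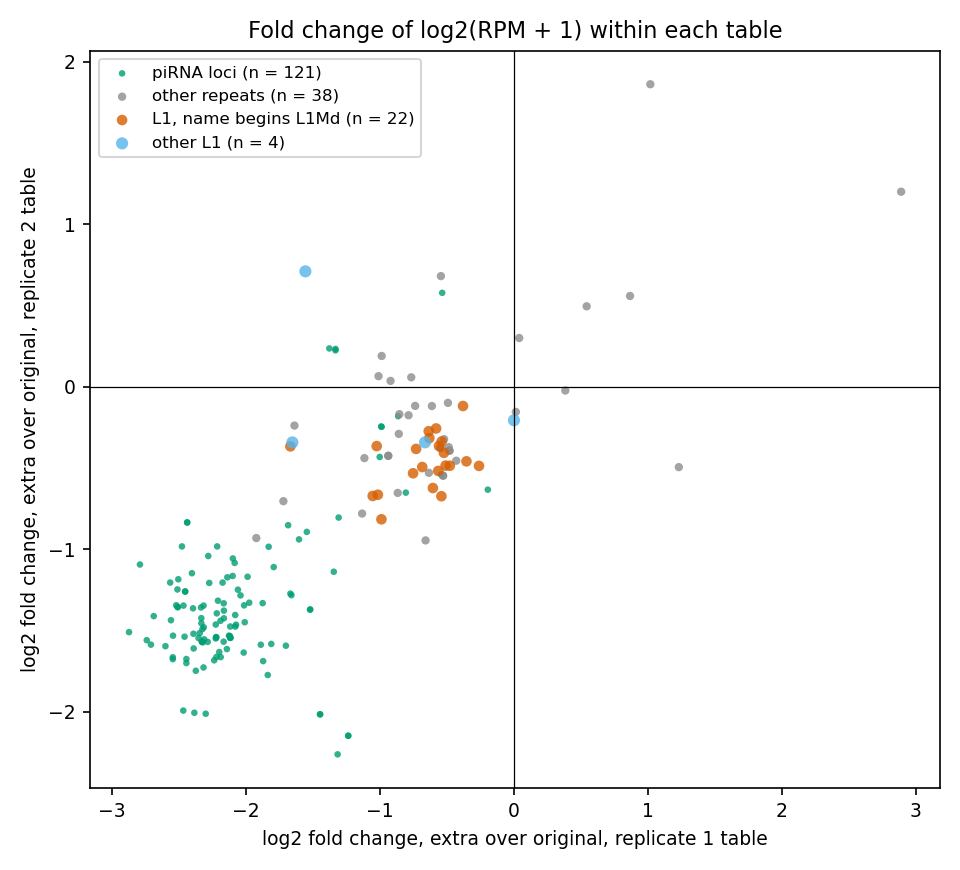
Log2 fold change of log2(RPM + 1), extra over original cross, in the replicate 1 table (horizontal axis) and in the replicate 2 table (vertical axis). Each point is 1 tested repeat feature or piRNA locus, and the tested tRNA, miRNA and rRNA features are not drawn. The 22 L1Md features lie below 0 on both axes among the other repeats, at medians of -0.59 and -0.47, and the piRNA loci lie further from 0, at -2.19 and -1.43.

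The median of L1 lay near those of 3 other groups of retrotransposons in the same libraries, and single repeats ranged widely. Retroviral IAPEZI_ERV2_Mus had 52.0 and 47.5 RPM in the extra cross against 95.1 and 58.4 RPM in the original cross. The short element B2_Mm1a_SINE2-tRNA_Mus had 22.1 and 22.6 RPM in the extra cross against 43.3 and 30.7 RPM in the original cross. The median log2 fold change was -0.47 over 2 IAP features, -0.46 over 8 B1 features and -0.51 over 6 B2 features, against -0.50 over the 26 L1 features. Some B1 and B2 elements are listed under 2 names with equal values, such as B2_Mm1a_SINE2-tRNA_Mus and B2_Mm1a__, and count more than once. Summed RPM gave log2 ratios in the 2 tables of -0.78 and -0.26 for IAP and -0.76 and -0.41 for B2. B1 was nearer 0, at -0.22 and -0.20, against -0.82 and -0.34 for L1. The 38 repeats other than L1 ran from -1.43 to 2.05. Among those on the positive side, named after their values were seen, RLTR4I_MM_ERV1_Mus had 71.5 and 129 RPM in the extra cross against 34.8 and 34.7 RPM in the original cross. Its log2 fold change was 1.44 ± 0.48 (SE) with a limma adjusted p of 0.261. The piRNA loci differed by more, and their sum was 4068 and 3684 RPM in the extra cross against 16391 and 8826 RPM in the original cross. L1 was therefore 0.125 and 0.151 times the piRNA sum in the extra cross, against 0.0549 and 0.0798 times in the original cross, without overlap.

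The distance of L1 from 0 depended on how the libraries were scaled. Its distance from the other features could hardly change, since a scaling divides each library by 1 factor and shifts all its features nearly alike. Median-ratio scaling over the tested features moved the median of all 760 features to 0.19, against -0.12 as deposited. The L1 median was -0.19 under that scaling, with 24 of 26 features negative. With median ratios taken over all 1479 small RNA features above 0 in every library it was -0.058, with 19 of 26 negative, and 0.33 over all 760 features. The L1 median lay below that of all features by 0.38 as deposited and by 0.38 under both median-ratio scalings, which follows from the scaling itself. Other settings did change this gap. The L1 median minus that of all features was -0.32 with features of equal values taken once and -0.24 with no minimum. With 1 library left out it ran from -0.35 to -0.27. The L1 median lay within 0.034 of the median of the repeat class in every one of the scalings plotted. These again shift both nearly alike, and the 64 repeats include the 26 L1 features. Over the 38 other repeats the median was -0.44 as deposited. With 1 library left out, the L1 median minus that of the repeat class ran from -0.14 to 0.13.

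The genes that silence L1 in germ cells left few fragments. Of 36 listed genes of the piRNA pathway, DNA methylation and other retrotransposon control, 19 had a matched RefSeq transcript with a value, none reached a mean of 10 RPM and 12 stayed under 1 RPM. Their values in original-cross replicate 1 were multiplied by 26.2 to match the 1-read value of its other classes. Trim28, a corepressor of retroelements, had the highest mean, with 6.42 and 3.57 RPM in the extra cross and 4.74 and 3.37 RPM in the original cross. Setdb1, its partner histone methyltransferase, had 2.31 and 2.62 RPM in the extra cross and 1.58 and 7.01 RPM in the original cross. Samhd1, which limits reverse transcription, had 1.71 and 2.77 RPM in the extra cross and 5.27 and 3.74 RPM in the original cross, which stand for 2.67 to 11.7 reads. The maintenance methyltransferase Dnmt1 had 1.28 and 2.14 RPM in the extra cross and 3.16 and 1.68 RPM in the original cross. The PIWI protein gene Piwil2 stayed at or under 1.05 RPM in every library. At a lower minimum of 2 RPM 5 of the genes were tested and 0 passed limma (lowest adjusted p 0.505, 0 with an unadjusted p below 0.05), with a median log2 fold change of -0.32 against -0.45 over 3869 genes. Of the RefSeq genes 0% passed at either minimum, though 12 of 477 passed without original-cross replicate 1 and none of the listed genes was among those tested there, and of the 477 tested at 10 RPM 23.9% had an unadjusted p below 0.05.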

How the data were processed

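Small RNA of sperm was sequenced from 4 mice. Per the labels' protocols, each male's RNA, taken with Trizol, was size-selected on a gel before TruSeq small RNA library preparation, and all libraries ran in 1 lane. Named without role or order in the submitters' processing notes are mm10, Bowtie 1.1.2 and CASAVA 1.8.2. The deposited values are RPM, as the file headers say. Not given in the sources used here are the total behind them, the trimming, the repeat annotation and the rule for reads with several matches. Counts could not be recovered, so no count model was run. A column was given to a replicate by its cross and its table's replicate number, and a feature listed in 1 table was set to 0 in the other.

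Values were log2(RPM + 1). Features that reached a 4-library mean of 10 RPM were fitted with limma 3.58.1 (R 4.3.3), with a variance trend and Benjamini-Hochberg adjustment over all 760 features. Fold changes on this scale understate those of low features. RefSeq values of original-cross replicate 1 had a 1-read value 26.2 times below the other classes and were multiplied by that ratio. Of 68434 RefSeq transcripts 55925 (81.7%) matched a symbol in the RefSeq table of GRCm38.p6. Python 3.11.15 (pandas 2.3.3, numpy 2.4.6, matplotlib 3.10.9) prepared and plotted the tables. The fit was tested on simulated data of 760 features with 200 changed. It recovered 2% of the 2-fold and 32% of the 4-fold changes, and 70% at 8-fold and 90% at 16-fold, and 2 of its 99 calls were false. The simulated noise was independent for each feature and library. It therefore lacked features of equal values and deviations shared by same-numbered libraries, and these rates need not hold for the real data.

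The members, the lists and the settings were chosen with earlier results of these data known. The text names the tested L1 features, the 5 highest below the minimum, the most abundant feature of each L1Md subfamily, up to 2 features of IAP, B1 and B2, and members of the silencing gene list. No L1 sequence is shown. P-values and standard errors rest on the spread between 2 mice per cross, drawn by limma toward a variance trend over all tested features. They are therefore not the spread of a single feature alone.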

Additional observations from a re-analysis of the deposited data

How the results depend on the processing

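The L1 median of -0.50 stayed negative under all alternatives run, and the number of L1 features past the threshold stayed 0 in all but 1. With a replicate block 1 of 26 passed, L1MdFanc_I_L1_Mus at a limma adjusted p of 0.039, and 171 of all 760 features did, against 0 without it, but the numbers are not known to mark pairs. Deviations from the cross mean correlated at 0.87 between same-numbered libraries over 760 features and at -0.50 over the 26 L1 features. The median was -0.49 with 10 RPM required in each cross, -0.33 with no minimum, -0.19 and -0.058 under median-ratio scaling over the tested and over all features, and -0.14 scaled to the repeat class without its 5S repeat. The last 2 were chosen after seeing the data, as were the minimum in each cross and the sum without HAL1-1H. With 1 library left out it ran from -0.63 to -0.42. The young minus other difference (-0.056) ran from -0.24 to 0.30 in those fits and was -0.43 with no minimum.

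On the log2 scale the L1 sum, at -0.82 and -0.34 in the 2 tables, was -0.25 and -0.57 as a share of the repeat class and -0.22 and -0.18 without its 5S repeat. Median ratios over the tested features turned L1B_MM_L1_Mus (0.20) and L1MdF_III_L1_Mus (0.057) positive. Over all features 7 turned positive: HAL1-1H_Cpo_L1_Cavia (0.033), L1B_MM_L1_Mus (0.33), L1MdA_V_L1_Mus (0.058), L1MdF_III_L1_Mus (0.19), L1MdF_IV_L1_Mus (0.017), L1MdN_I_L1_Mus (0.025) and L1MdTf_III_L1_Mus (0.0061). Scaled to the repeat class L1B_MM_L1_Mus was at 0.044, and without the 5S repeat it was at 0.25 and L1MdF_III_L1_Mus at 0.11. With 1 library left out HAL1-1H_Cpo_L1_Cavia ran from -1.13 to 0.28 and L1B_MM_L1_Mus from -0.31 to 0.10. The cause was not tested. Depth limits the 22 tested L1Md features to 10.3 to 33.6 reads in original-cross replicate 1.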

Other observations

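Features named for a segment of L1 gave mixed values on few reads. For comparison, 36.3% of the 2150 small RNA features were lower in both tables. The 15 features of 3′ ends had sums of 32.7 and 29.04 RPM for the extra-cross males, against 49.9 and 36.4 RPM for the original-cross males, and 8 of them were lower and 5 higher in both tables. The 8 features of 5′ ends, where the L1 promoter lies, summed to 9.56 and 8.995 RPM in the extra cross, against 18.4 and 12.0 RPM in the original cross, and 2 were lower and 2 higher in both tables. The 4 features of the second open reading frame summed to 7.84 and 4.55 RPM in the extra cross, against 11.3 and 5.11 RPM in the original cross, and 1 was lower and 2 were higher in both tables.

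Among the old Lx elements, the 19 features whose name begins with Lx or LX had 5 members lower and 6 higher in both tables. The 4 features named L1Lx had 3 lower and 0 higher. Of the 2150 small RNA features 36.3% were lower in both, and the share higher in both was not computed. Lx_3end_L1_Muridae was higher in the extra cross of both, at 6.28 and 5.54 RPM, against 5.21 and 5.06 RPM in the original cross. LX_L1_Muridae was as well, at 5.29 and 4.33 RPM in the extra cross against 3.13 and 3.89 RPM in the original cross. In original-cross replicate 1 these features stood for only 3.30 and 1.98 reads. The 26 features named for animals outside Mus, Muridae and Rattus, HAL1-1H_Cpo_L1_Cavia left out, reached at most 0.8497 and 0.459 RPM in the extra cross and 2.31 and 1.48 RPM in the original cross.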
